A study of Rattus norvegicus with 4 samples.

Results

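The soleus of sham-operated legs was compared between rats on a genistein diet and rats on a control diet. The comparison took the array whose title gives the genistein diet with sham treatment against the array whose title gives the control diet with sham treatment, 2 of the study's 4 arrays. It covered 10819 of the 14217 genes on the array, those with a signal above a floor of 78.9 units (the 40th percentile of all probe sets) on at least 1 of the sham arrays. A log2 diet ratio is the log2 of the genistein signal over the control signal, with signals below the floor raised to it, so a value above 0 means higher on genistein.

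All animals were male Wistar rats, 10 weeks old at the start and given as 14 weeks in the sample labels. The control group ate an AIN-93G diet modified by exchanging soybean oil for corn oil, and the genistein group an AIN-93G diet with 0.5 g of genistein per kg (0.05%). The labels state the oil exchange for the control diet only. Diets lasted 24 days. On day 14 every rat had the left sciatic nerve cut and a sham operation on the right leg, and the muscles were taken 10 days later, so both sham pools come from rats with a denervated muscle in the other leg. RNA of 8 rats was pooled per group and put on 1 Affymetrix rat array, so no value has a replicate, no test was possible, and a difference describes these 2 pools.

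The treatment field of the genistein sham sample calls it denervated, against its title, and the field of the control denervated sample calls that one sham. Chrna1, the acetylcholine receptor alpha subunit that muscle makes after nerve loss, had 1859.7 units in control sham, 1589 in genistein sham, 20549.7 in control denervated and 16186 in genistein denervated muscle. Chrng, the fetal receptor subunit, did not reach the floor on either sham array but had 881 and 1046 units on the denervated arrays. These values side with the titles for the operation. No gene here checks the diet, which rests on the labels alone.

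Genistein is a soy isoflavone that binds oestrogen receptors and inhibits some tyrosine kinases. The soleus is a postural muscle rich in slow fibres, whose contractile, calcium-handling and mitochondrial genes depend on nerve activity and load. Cish belongs to the SOCS family of cytokine signalling inhibitors and is induced through the transcription factor STAT5, which acts downstream of growth hormone, prolactin and other cytokines. Mybph and Mybpc2 encode proteins bound to the thick filament of the sarcomere.

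The sham arrays were close to each other. Over the 9936 genes above the floor on both, log2 signals correlated at 0.989, the median diet ratio was 0.00, and 50.5% of measured genes were above 0. At least 2-fold higher on genistein were 35 genes (0.324%) and at least 2-fold lower 31 (0.287%), together 0.61% of those measured. In 23 of these 66 genes 1 sham array was below the floor, so that the ratio is a lower bound. At 1.5-fold, 289 genes were higher (2.67%) and 270 lower (2.5%), together 5.17%. The plot of the sham signals shows the spread widening towards low signals, with Mybph the farthest from the line of equal signal.

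**Figure D1:**
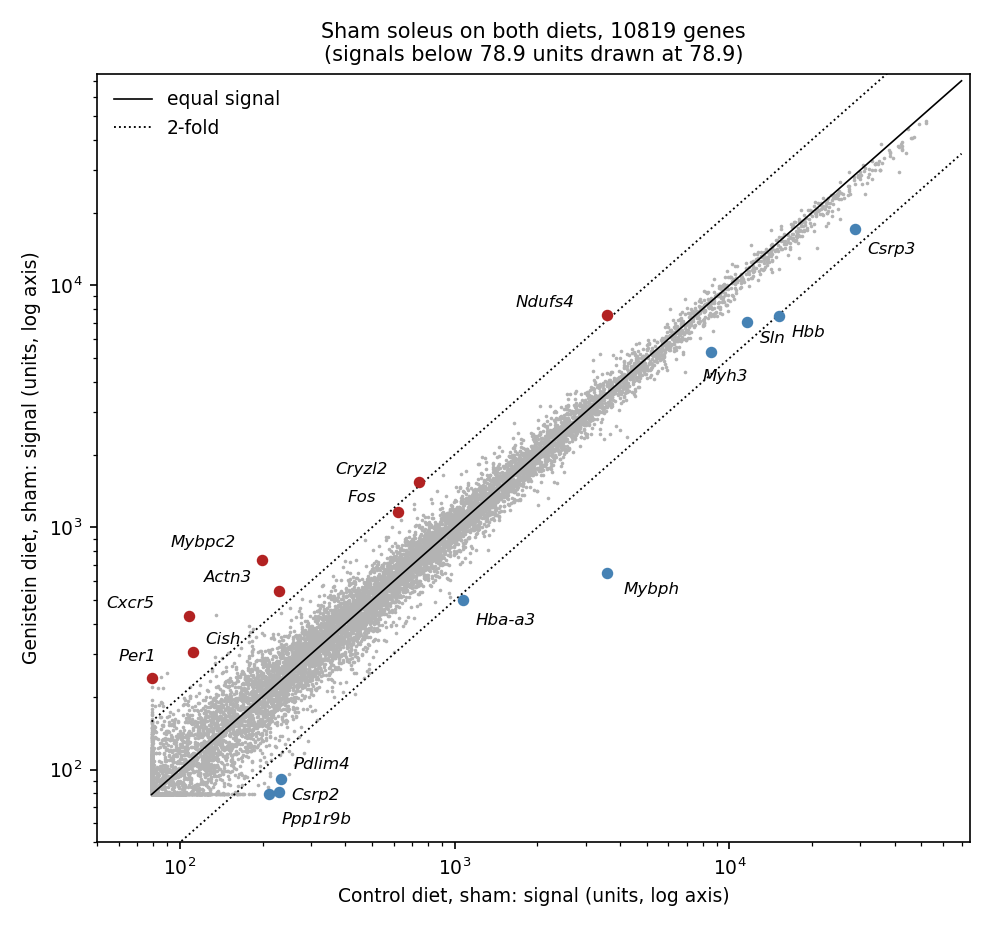
Signal on the genistein sham array (vertical, units, log axis) against the control sham array (horizontal, units, log axis), 1 point per measured gene. The solid line is equal signal and the dotted lines 2-fold. Mybph lies 5.57-fold below the line, Ndufs4 lies 2.10-fold above it, and most genes past 2-fold lie below 250 units on 1 array.

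The share of genes past 1.5-fold followed the signal. Of the 2750 genes whose lower sham signal was at most 250 units, 11.1% passed it, and the SD of their diet ratios across genes was 0.38. Of the 2393 genes between 1000 and 4000 units 0.669% passed, with an SD of 0.17. Above 4000 units no gene was 1.5-fold higher, and 5 were lower: Hbb, Csrp3, Sln, Myh3 and Mettl21c, of which Mettl21c was picked for its value. The brightest genes were also shifted as a class. Of the 324 genes above 10000 units on both arrays, 248 were below 0, with a median of -0.07. For scale, the probe sets of 1 gene scattered around their mean diet ratio with an SD of 0.29, over 2919 genes with 6845 probe sets.

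**Figure D2:**
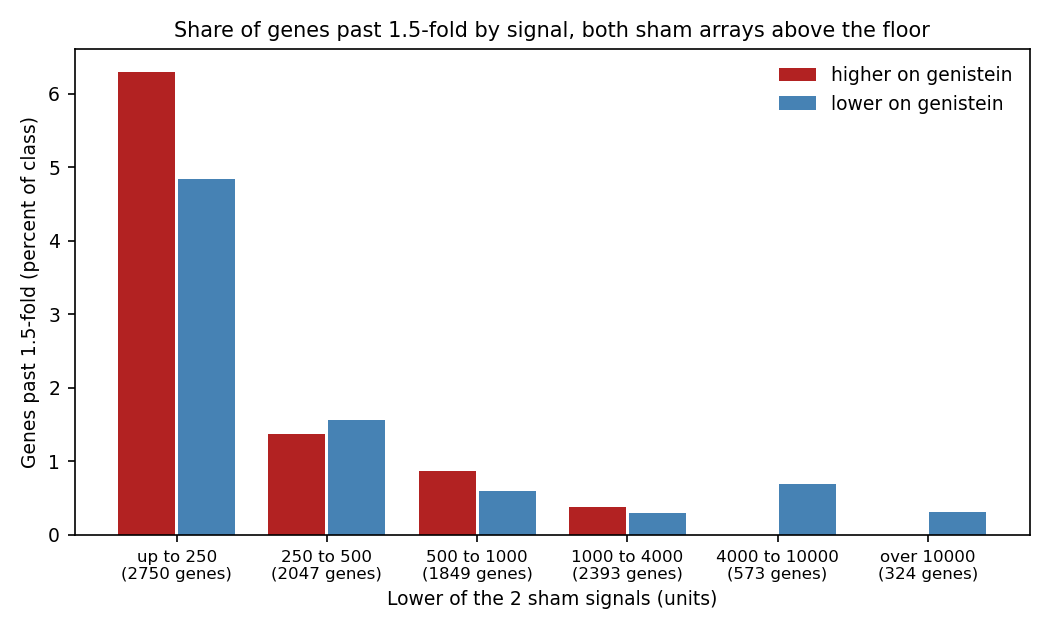
Percentage of genes at least 1.5-fold higher (red) or lower (blue) on genistein in sham muscle (vertical), by the lower of the 2 sham signals in units (horizontal, number of genes in brackets). The share falls with signal, and above 4000 units only lower genes pass.

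A second probe set rarely repeated a call. Of the 289 genes 1.5-fold higher, 48 had a second measured probe set, which had the same sign in 26 and also passed 1.5-fold in 5. Of the 270 lower genes, 45 had one, with the same sign in 23 and past 1.5-fold in 5. Among all 2919 genes with a second measured probe set, that probe set passed 1.5-fold in 247, in either direction. Second probe sets are given below for many of the genes described at length.

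The largest single difference was in myosin-binding protein H. Mybph had 3597 units in control sham, 646 in genistein sham, 2924 in control denervated and 3540 in genistein denervated muscle. The genistein sham pool was the low one of the 4, 5.57-fold below control sham, whereas the diet ratio in denervated muscle was 0.28. Mybph has 1 probe set. Mybpc2, the fast-fibre myosin-binding protein C, had 199, 735, 1243 and 1012 units in the same order. Here the control sham pool was the low one, with genistein sham 3.69-fold above it and a ratio of -0.30 after denervation. Its other probe set, below the floor in control sham at 16.4 units and at 147 in genistein sham, gave at least 0.90. Mybpc1, the slow-fibre relative, had 33127 units in control sham and 27410 in genistein sham muscle (-0.27), and Mybpc3, the cardiac one, had 175 and 207 (0.24).

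Other genes of the M-band and Z-disc, which anchor thick and thin filaments, differed little. Actn3, the alpha-actinin of fast fibres, was an exception, with 230.1 units in control sham, 549 in genistein sham, 7988 in control denervated and 4156 in genistein denervated muscle. The sham ratio was 2.39-fold upward and the denervated one 1.92-fold downward. Of the 15 measured genes on this list, 2 were 1.5-fold higher and 1 lower, and 11 were below 0, with a median of -0.14 against 0.00 for all genes. Over all genes 2.67% were 1.5-fold higher and 2.5% lower, which also stands beside the counts of the lists below. All lists were chosen with earlier results of these data known, and this one holds Mybph and Mybpc2, so the counts are descriptions. Tcap, Myot, Ldb3 and Myom1 lay between -0.14 and -0.09.

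Of 19 measured fast-fibre genes 4 were 1.5-fold higher and none lower, and their median ratio was 0.00. Over all genes 2.67% were 1.5-fold higher, and with both sham signals above 250 units 1 of 15 fast-fibre genes passed. The 4 higher genes were Mybpc2 and Actn3, both among the 15 highest ratios, Myh4 and Gpd1. Myh4, the type IIb myosin heavy chain, had 82.0 units in control sham and 144 in genistein sham muscle (0.81), close to the floor, and 18730 and 11286 after denervation (-0.73). Gpd1, the cytosolic glycerol-3-phosphate dehydrogenase, had 1639 and 2698 units in sham (0.72) and 563 and 690.3 in denervated muscle. Its other probe set was below the floor throughout. The common fast myosins barely differed, at 38431 and 35566 units for Myh2 (-0.11) and 9486 and 10072 for Myh1 (0.09). Pvalb, the calcium buffer parvalbumin, was at 316 and 218 units (-0.54).

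Slow-fibre genes lay below 0 without exception (14 of 14), and the list's median was -0.18. Of them 2 were 1.5-fold lower, beside 2.5% of all genes. Of the slow contractile genes, Myh7 had 48928 and 46466 units in control and genistein sham muscle (-0.08) and Myl3 42528 and 37585 (-0.18). Most of these genes are in the class of very bright genes that was shifted down as a whole. After quantile normalization, which gives the arrays 1 distribution, 7 of the 14 were below 0 and the median was 0.00, so the common direction is not stable to the scaling. Pln and Csrp3, the 2 that passed 1.5-fold, did so under quantile normalization too.

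**Figure D3:**
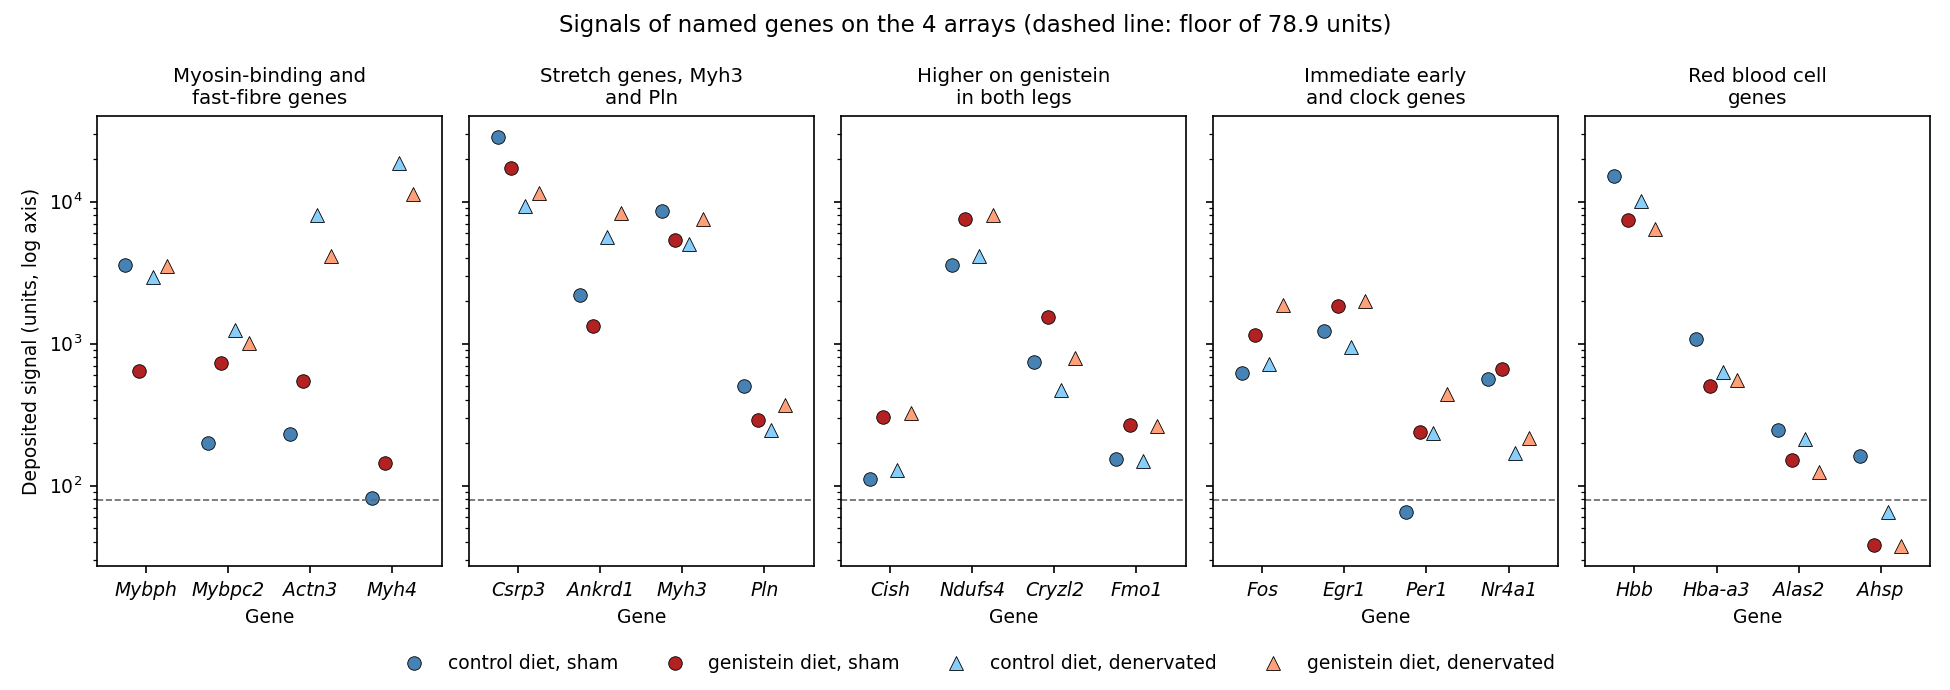
Deposited signal (vertical, units, log axis) of 20 genes on each of the 4 arrays, with circles for sham and triangles for denervated muscle, blue for control diet and red for genistein. Genistein sham is the low array for Mybph and control sham the low one for Mybpc2, Actn3 and Myh4, while Cish, Ndufs4 and Fmo1 are split by diet in both legs.

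Genes of muscle stretch and of LIM domain proteins were lower on genistein more often than higher. Of 16 measured, 14 were below 0, 5 were 1.5-fold lower and none was 1.5-fold higher, with a median of -0.21 (-0.13 and 13 of 16 below 0 after quantile normalization). Over all genes 2.5% were 1.5-fold lower. The list was chosen with earlier results of these data known and holds Csrp2 and Pdlim4, which are among the 15 lowest ratios. Its count beside that share is a description and not a test. With the floor at the 60th percentile, or with both sham signals above 250 units, 3 members were 1.5-fold lower instead of 5. Csrp3, the muscle LIM protein of the Z-disc, had 28593 units in control sham, 17102 in genistein sham, 9327 in control denervated and 11444 in genistein denervated muscle. The sham ratio was -0.74 and that after denervation 0.30. Ankrd1, a cardiac and muscle ankyrin repeat protein induced by stretch, had 2187, 1319.9, 5635 and 8282 units. It was 1.66-fold lower in sham muscle, with its second probe set at -0.82, and at 0.56 after denervation. Fhl2, a LIM-only protein, was named after its values were seen. It was at 4004 and 2518 units in the sham pools (-0.67, and -0.45 on its second probe set) and at 479 and 467 after denervation.

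The dimmer members had larger ratios. Csrp2, a LIM protein best known from smooth muscle, had 229 units in control sham and 80.7 in genistein sham muscle (-1.51), and 466 and 420 after denervation. Pdlim4, a PDZ and LIM adaptor, had 233 and 91.0 units in sham muscle and 218 and 299 after denervation. Both genistein sham signals lie just above the floor, and with the floor at the 60th percentile the sham ratios were -0.08 for Csrp2 and -0.10 for Pdlim4. Ankrd2, a stretch-responsive ankyrin of slow fibres, was lower in both legs without passing 1.5-fold, at 31109 and 23942 units in sham muscle (-0.38) and 496 and 334 in denervated muscle (-0.57).

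The small inhibitors of the sarcoplasmic calcium pump were also lower. Sln, sarcolipin, had 11619.5 units in control sham, 7046 in genistein sham, 29196 in control denervated and 23090.4 in genistein denervated muscle, a sham ratio of -0.72. Pln, phospholamban, had 504, 291, 246 and 369 units, with a sham ratio of -0.79 and a denervated ratio of 0.59. The second probe set of Pln gave -0.69 and 0.36. Of the developmental myosins, Myh3, the embryonic heavy chain, had 8595 and 5321 units in the sham pools and 5009 and 7534 in the denervated pools (0.59). Its sham ratio was -0.69, and -0.55 after quantile normalization, short of 1.5-fold. Myh8, the perinatal one, went the other way in sham muscle, at 392.2 and 685 units (0.80).

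Genes that muscle makes after nerve loss had a median of -0.22 over 12 measured in sham muscle. Of these, 10 were below 0 and 2, Ankrd1 and Sln, were 1.5-fold lower, beside 2.5% of all genes. Runx1, a transcription factor of denervated muscle, was at 2308 and 1547 units (-0.58), with its second probe set at -0.91, and Myog at 3030 and 2373 (-0.35). The ubiquitin ligases of muscle wasting lay near 0: Trim63 (MuRF1) had 4058 and 4108 units and Fbxo32 (atrogin-1) 231 and 259, and none of the 13 measured genes on their list passed 1.5-fold.

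Cish was higher on genistein in both legs. It had 111 units in control sham, 306 in genistein sham, 128 in control denervated and 324 in genistein denervated muscle. Both genistein pools were above both control pools, by 2.75-fold in sham and 2.53-fold in denervated muscle. Its other probe set was below the floor on all 4 arrays, at 9.2, 50.7, 17.2 and 70.0 units. With a lower signal near 111 units, Cish sits in the class where 11.1% of genes passed 1.5-fold. With the floor at the 60th percentile its sham ratio was 0.49, short of 1.5-fold.

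The start of the Cish gene is shown because STAT5 binds spaced TTCNNNGAA sequences. The 250 bases before the start in RefSeq's GRCr8 table, chr8:116850719-116850968 on the plus strand, hold 4 matches, printed in capitals.
Cish promoter: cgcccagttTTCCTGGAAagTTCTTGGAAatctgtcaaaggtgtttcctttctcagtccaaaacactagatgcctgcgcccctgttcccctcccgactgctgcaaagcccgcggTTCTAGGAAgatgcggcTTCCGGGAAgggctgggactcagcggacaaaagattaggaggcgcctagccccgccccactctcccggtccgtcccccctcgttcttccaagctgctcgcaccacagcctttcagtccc
The motif is its own reverse complement, so 1 search covers both strands. Of 33469 promoters of the same length, 7.67% hold at least 1 match and 2 hold at least 4. Among the 19 measured genes of the cytokine list with a promoter in the table, Socs1 and Prlr hold 1 each and the others besides Cish hold none. A match is a description of letters and not of binding.

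In sham muscle no other gene of this pathway passed 1.5-fold. Of the 23 measured SOCS, STAT, JAK, receptor and target genes, Cish alone passed 1.5-fold, 13 were above 0, and the median was 0.06. Stat5a had 479 and 499 units in control and genistein sham muscle (0.06) and Stat5b 267 and 264 (-0.02). The growth hormone receptor Ghr had 1822 and 1764 (-0.05), and its target Igf1 had 1621 and 1569 (-0.05). In denervated muscle Igf1 had 929 and 1510 units (0.70), with its other probe sets at 0.50 and 0.60. Igf1 and Cish were the list's 2 genes 1.5-fold higher there, of 21 measured in both legs. Over all genes measured in both legs 6.22% were 1.5-fold higher in denervated muscle. Socs2, another STAT5 target, did not reach the floor in sham muscle, at 66.5 and 53.8 units, and had 84.2 and 122 in denervated muscle (0.53). Socs3 was at 97.2 and 119.9 units (0.30).

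Immediate early genes, many of them transcription factors, which cells induce within minutes of a stimulus, were higher more often than lower. Of 24 measured, 18 were above 0, 5 were 1.5-fold higher and 1 was lower, with a median of 0.15. Over all genes 2.67% were 1.5-fold higher and 2.5% lower. With both sham signals above 250 units 3 of 17 members were 1.5-fold higher and none lower. After rescaling to equal medians or by quantiles 15 of 24 were above 0. In denervated muscle 21 of the 24 were above 0, with a median of 0.33. Fos had 621 units in control sham, 1156 in genistein sham, 720 in control denervated and 1857 in genistein denervated muscle, ratios of 0.90 and 1.37. Egr1 had 1218, 1837, 951 and 1988 units, ratios of 0.59 (0.57 after median scaling, short of 1.5-fold) and 1.06. For both genes the genistein pools were the high ones in each leg. Zfp36, Nr4a3 and Ccn1 were the others past 1.5-fold upward in sham muscle, with all 3 Nr4a3 probe sets between 0.67 and 1.60, and Nr4a2 was the one downward, at 149 and 87.4 units. Several relatives lay near 0, such as Junb (0.01), Egr2 (0.01) and Myc (0.06).

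The Egr1 promoter is shown as the start of a gene on this list that was higher in both legs. Immediate early genes are known for CArG boxes, bound by serum response factor, and for cAMP response elements with the core TGACG. The window is chr18:26736828-26737077 on the plus strand of GRCr8, with CArG boxes and TGACG, searched on both strands, in capitals.
Egr1 promoter: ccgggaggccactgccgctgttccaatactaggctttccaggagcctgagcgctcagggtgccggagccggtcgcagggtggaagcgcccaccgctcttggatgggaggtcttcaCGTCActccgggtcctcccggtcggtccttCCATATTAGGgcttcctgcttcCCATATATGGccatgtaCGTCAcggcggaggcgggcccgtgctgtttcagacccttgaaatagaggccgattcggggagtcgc
It holds 2 CArG boxes, and 1.5% of the 33469 promoters hold at least 1 and 7 promoters hold at least 2. It holds 2 TGACG matches, which 3.98% of promoters also do or exceed.

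Per1, a clock gene that also responds to acute stimuli, was below the floor in control sham muscle at 64.9 units and had 239 in genistein sham, 234 in control denervated and 438 in genistein denervated muscle. It was at least 3.02-fold higher in sham and 1.87-fold higher in denervated muscle. In sham muscle the rest of the clock did not share this. Of 17 measured clock genes Per1 alone passed 1.5-fold there, with Bmal1 at 0.16, Nr1d1 at 0.26, Per3 at -0.49 and Dbp at -0.15. In denervated muscle 2 of the 17 were 1.5-fold higher and 0 lower, beside 6.22% and 1.62% of all genes. They were Per1 and Nfil3, the latter at 88.4 and 185 units. The sources used here give no time of day for the dissection.

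Among brighter genes, 2 stood above 2-fold upward with both sham signals over 500 units, and both were higher in both legs. They were chosen after their values were seen. Ndufs4, an accessory subunit of respiratory complex I, had 3587 units in control sham, 7518 in genistein sham, 4150 in control denervated and 8076 in genistein denervated muscle. It was 2.10-fold and 1.95-fold higher, and both genistein pools were far above both control pools. The respiratory chain list, which does not hold Ndufs4, did not follow: its 28 measured genes lay between -0.29 and 0.17, with a median of -0.07 (0.04 after quantile normalization). Cryzl2, a quinone oxidoreductase-like protein, had 743, 1539, 474 and 791 units, 2.07-fold and 1.67-fold higher. Each of these genes has 1 probe set.

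Over 500 units in both sham pools, 25 genes were 1.5-fold higher and 23 lower, and the following were named from them after their values were seen. Upward were Pltp, the phospholipid transfer protein, at 593 and 1000.4 units in sham and 383 and 916 in denervated muscle, and Padi2, a peptidylarginine deiminase, at 911 and 1648 units in sham muscle. Also upward were Cul4a, a ubiquitin ligase scaffold, at 3374 and 5219 units, and Sec24d, of the vesicle coat that leaves the endoplasmic reticulum, at 2041 and 3187. Downward were Mettl21c, a muscle lysine methyltransferase, at 6876 and 4379 units, and Smyd1, a muscle methyltransferase that works with myosin chaperones, at 2366 and 1525. Rrad, a small GTPase that restrains calcium channels, was lower at 3508 and 2321 units, and 969 against 933 after denervation. Acta1, the skeletal alpha-actin, also chosen for its values, did not pass 1.5-fold, at 41469.7 and 29290.3 units (-0.50, and -0.35 after quantile normalization). The 3' to 5' signal ratio of the actin control probe sets, a measure of RNA integrity, was 2.08 on the control sham and 2.32 on the genistein sham array, and that of Gapdh 1.24 and 1.20. On the control and genistein denervated arrays the actin ratio was 3.79 and 2.76 and that of Gapdh 1.14 and 1.13. The part of these differences in any gene's ratio was not tested.

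Neither oestrogen receptor was detected above the floor. Esr1 had 4.7 and 8.0 units in the sham pools and Esr2 had 3.8 and 3.6, all far below the floor. Of 18 measured genes on the oestrogen list 12 were above 0 and 2 were 1.5-fold higher, none lower, and the median was 0.08. Over all genes 2.67% were 1.5-fold higher. With the floor at the 60th percentile none of 15 members passed 1.5-fold, and with both sham signals above 250 units none of 12. Rara, a retinoic acid receptor, had 87.1 units in control sham and 183 in genistein sham muscle (1.07), and 138 and 172 after denervation. Ncoa3, a nuclear receptor coactivator, had 157 and 276 units in sham (0.82) and 208 and 209 after denervation, and its second probe set gave 0.19. Pgr and Greb1, classical oestrogen targets, were below the floor on all 4 arrays. The oestrogen-related receptors Esrra (0.20) and Esrrg (0.21) were slightly higher.

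Genes that handle foreign compounds gave a mixed picture, with 3 of 25 higher at 1.5-fold, 1 lower and a median of 0.00. Over all genes 2.67% were 1.5-fold higher and 2.5% lower. With the floor at the 60th percentile none of 19 members passed 1.5-fold. The flavin monooxygenases, which oxidise drugs and dietary compounds, were among the higher ones. Fmo1 had 155 units in control sham, 268 in genistein sham, 149.8 in control denervated and 263 in genistein denervated muscle, ratios of 0.79 and 0.81. Fmo2 had 85.3, 241, 97.1 and 214 units on its brightest probe set, 2.83-fold and 2.21-fold higher, but a second probe set gave -0.25 in sham and 0.54 in denervated muscle, and with the floor at the 60th percentile the sham ratio was 0.15. Ahr, the aryl hydrocarbon receptor, was at 42.6 and 123 units, at least 0.64 higher. Of its targets, Cyp1b1 was lower at 162 and 85.6 units (-0.92), Cyp1a1 was below the floor throughout, and Tiparp was at 0.23. The Nrf2 target Nqo1 had 1114 and 1422 units (0.35), and Hmox1 202 and 228 (0.18). Outside the list and picked for its values, the glutathione transferase Gstm4 had 369.7 and 605 units in sham (0.71) and 926 and 1628 in denervated muscle (0.82).

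Heat shock proteins were slightly lower, with 14 of 17 below 0, 1 at 1.5-fold lower and a median of -0.18 (-0.12 and 12 of 17 after quantile normalization). Hspa1a, the inducible Hsp70, had 3675 and 2438 units in sham (-0.59, and -0.55 after quantile normalization) and 1577 and 1283 in denervated muscle. Hspb1 had 25176 and 18838 units (-0.42) and Cryab 42666 and 36109 (-0.24).

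Regulators of mitochondria had a median of 0.02 over 15 genes, none past 1.5-fold. Ppargc1a, the coactivator PGC-1 alpha that drives mitochondrial gene expression, had 929 units in control sham, 1352 in genistein sham, 628 in control denervated and 785 in genistein denervated muscle. Its 3 probe sets gave 0.43, 0.54 and 0.83 in sham muscle, all in the same direction. Fatty acid genes had a median of -0.01 over 25 (0.08 after quantile normalization). None passed 1.5-fold, and the highest was Plin5, a lipid droplet protein that contacts mitochondria, at 732 and 1094 units (0.58).

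**Figure D4:**
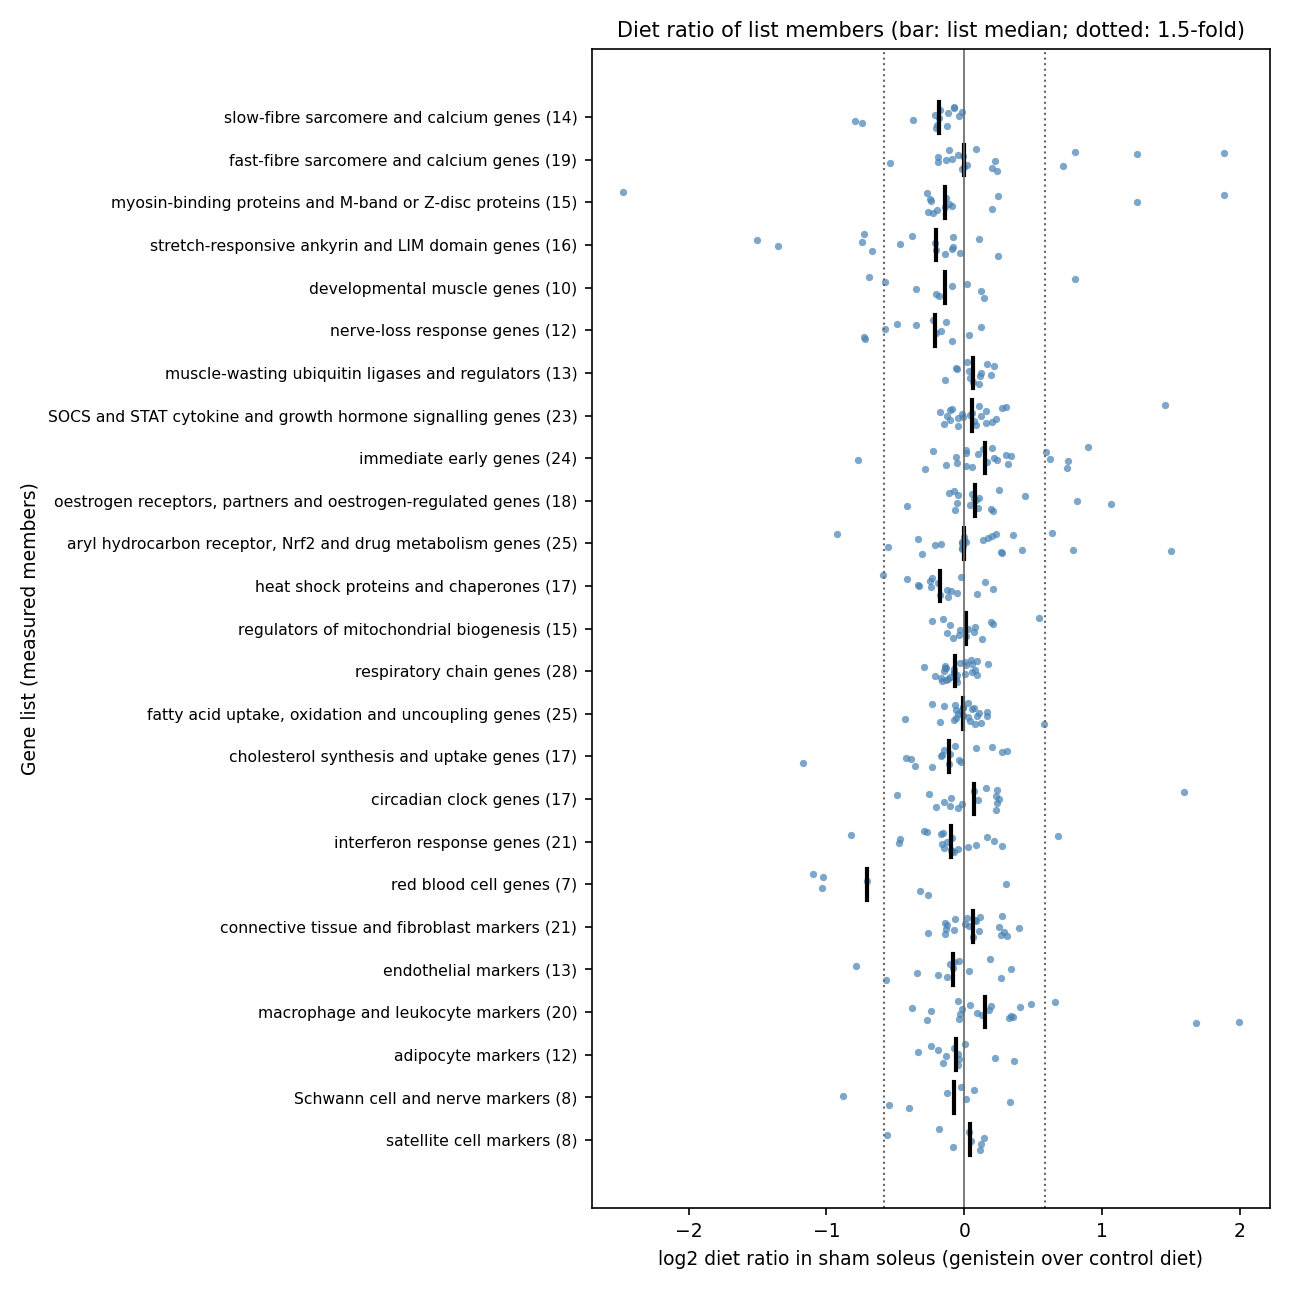
Log2 diet ratio in sham soleus (horizontal, genistein over control diet) of every measured member of 25 gene lists (vertical, number measured in brackets), 1 point per gene, with bars at list medians and dotted lines at 1.5-fold. The red blood cell list has the lowest median, -0.71, and the other medians lie between -0.22 and 0.15.

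Red blood cell genes were the list farthest from 0. Hbb, a beta-globin, had 15169 units in control sham, 7469 in genistein sham, 10137 in control denervated and 6429 in genistein denervated muscle, so the genistein pool was the lower in each leg, by 2.03-fold and 1.58-fold. After quantile normalization the sham ratio was -0.89, short of 2-fold. Hba-a3, an alpha-globin, had 1073, 501, 627 and 559 units, 2.14-fold lower in sham muscle and at -0.17 after denervation. Alas2, the first enzyme of haem synthesis in red cell precursors, had 246, 151, 212 and 125 units, ratios of -0.71 and -0.76. Ahsp, the chaperone of alpha-globin, had 162 units in control sham and was below the floor in genistein sham, at least 2.05-fold lower. In all, 4 of the 7 measured genes were 1.5-fold lower, beside 2.5% of all genes. The summed signal of the 7 was 53.5% of control, but Hbb made up most of that sum. Slc4a1, the red cell anion exchanger, was an exception at 165 and 204 units (0.30), and Epb42 and Rhag were below the floor throughout. Globin genes are near-identical copies that a probe set may not separate, and fewer cells of a type and less RNA per cell cannot be told apart in whole muscle.

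The Hbb promoter is printed as that of the brightest gene past 2-fold, with the CCAAT and CACCC letters known from globin promoters in capitals, at chr1:167663722-167663971 on the minus strand of GRCr8.
Hbb promoter: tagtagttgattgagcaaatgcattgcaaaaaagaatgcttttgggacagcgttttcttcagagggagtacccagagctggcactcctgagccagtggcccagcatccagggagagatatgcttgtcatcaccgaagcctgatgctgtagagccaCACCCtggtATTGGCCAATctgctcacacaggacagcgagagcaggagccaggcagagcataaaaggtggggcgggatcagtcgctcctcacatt
It holds 1 CACCC and a CCAAT that meets a copy on the opposite strand (ATTGG). Both motifs are common, with 49.2% and 34.0% of promoters holding at least 1 match on either strand.

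The marker lists of other cells had medians closer to 0 in sham muscle, though at the main floor single leukocyte genes had larger ratios than any red blood cell gene. Connective tissue markers had a median of 0.06 over 21 genes with none past 1.5-fold, and adipocyte markers -0.06 over 12, also with none. Endothelial markers had a median of -0.08 over 13, with Tie1, an endothelial receptor kinase, 1.72-fold lower at 236 and 137 units. Macrophage and leukocyte markers had a median of 0.15 over 20, and their summed signal was 108.4% of control. Cxcr5, a lymphocyte chemokine receptor, had 108 units in control sham and 431 in genistein sham muscle (3.98-fold), and 199.7 and 169 after denervation. Its other probe set and the lymphocyte markers Cd3e, Cd8a and Cd79b were below the floor on all 4 arrays. Cd1d1, a lipid-presenting molecule, had 136 and 435 units (1.68), and the macrophage receptor Cd163 had 195 and 309 (0.66).

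The denervated legs of the same rats give a second pair of arrays with the same diets. The pairs share no array but share the rats. Of the 10147 genes measured in both, 258 were 1.5-fold higher in sham muscle, and 52 of them were also 1.5-fold higher in denervated muscle. That is 20.2% of the sham calls and 8.24% of the denervated calls, beside 6.22% of all genes 1.5-fold higher in denervated muscle. Sham calls were mostly of dim genes, whose ratios scattered most, whereas the 6.22% is over genes of all signals. The shares are thus not matched for signal. With both sham signals above 250 units 10 genes were higher in both legs. Against these 52, 13 of the 258 were 1.5-fold lower after denervation, a share also above the 1.62% of all genes that were lower there. The same sign was seen in 166 of the 258. Of the 243 genes lower in sham muscle, 16 were also lower after denervation, 6.58% of the sham calls and 9.76% of the denervated ones, beside 1.62% of all genes. In the opposite direction, 17 of the 243 were 1.5-fold higher after denervation, beside 6.22% of all genes. Of the 243 genes, 120 had the same sign. Their median denervated ratio was 0.01, so as a group they had no common direction in the other leg. Over 9362 genes with all 4 signals above the floor, the diet ratios of the legs correlated at only 0.12 (Pearson and Spearman). The counts over both legs depended on the scaling. After median scaling 36 genes were higher and 19 lower in both legs, and after spike-in scaling 63 and 11. The median signal was 120.8 units on the control denervated and 132.5 on the genistein denervated array. The part of this in the shares of the denervated leg was not tested.

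**Figure D5:**
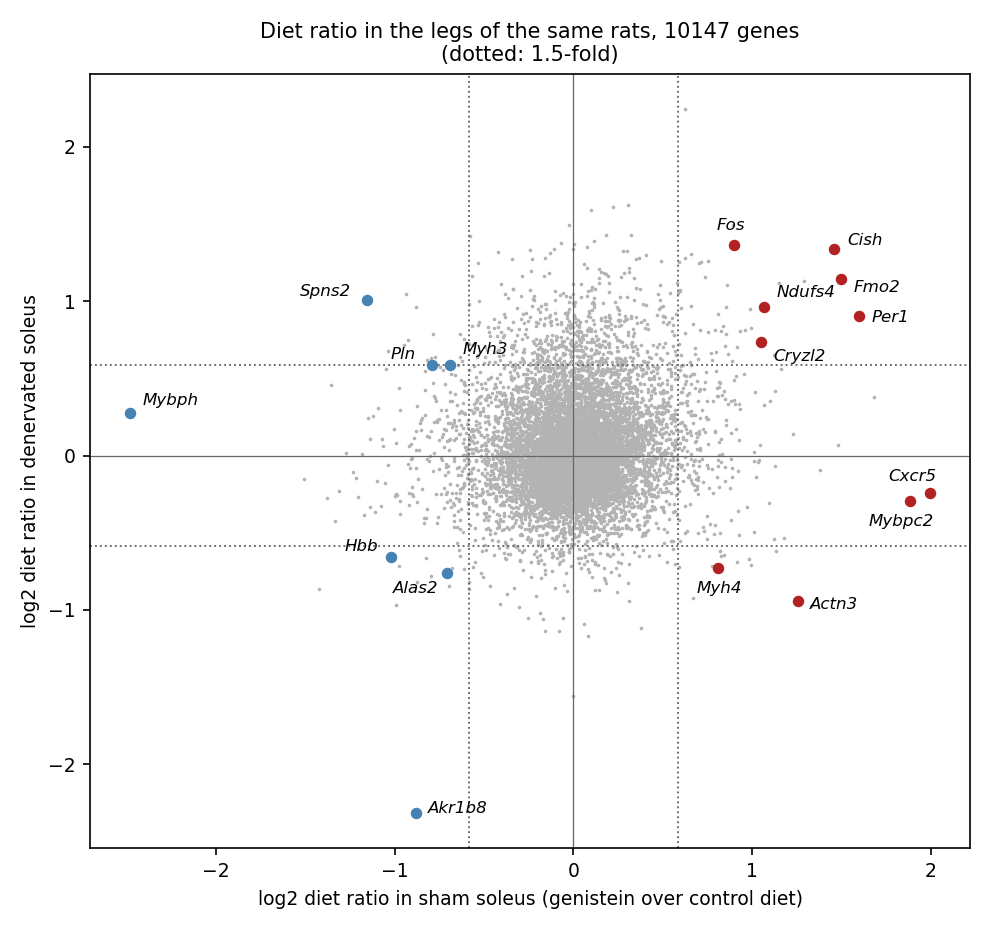
Log2 diet ratio in denervated soleus (vertical) against that in sham soleus (horizontal) for 10147 genes, with dotted lines at 1.5-fold. Cish, Ndufs4, Fmo2, Per1 and Fos lie in the upper right corner and Hbb, Alas2 and Akr1b8 in the lower left, whereas Mybph and Mybpc2 have ratios near 0 in denervated muscle.

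Of the genes higher in both legs, 35 were above the floor on all 4 arrays. They are Cish, Fmo1, Fmo2, Fos, Egr1, Ndufs4, Cryzl2, Gstm4 and Pltp from above, with others chosen for their values. Marcksl1, an actin-binding protein and protein kinase C substrate, had 179, 355, 192 and 370.3 units, ratios of 0.99 and 0.95. Pde8a, a cAMP phosphodiesterase, had 189.6, 353, 102 and 288 units, 1.86-fold and 2.82-fold higher, with its other probe set below the floor throughout. The angiotensin receptor Agtr1a (0.82 and 0.81), the chemokines Ccl2 (0.85 and 0.79) and Ccl21 (0.81 and 0.91), Bmp5 (0.74 and 1.16), the cholesterol transporter Abcg1 (0.67 and 0.86, with a second probe set at -0.16 in sham muscle) and the endosomal receptor Tlr8 (0.70 and 1.25) were in the same group. Cd163 was too, at 0.66 and 1.31. In denervated muscle the connective tissue, endothelial, leukocyte and adipocyte lists had medians of 0.73, 0.73, 0.74 and 0.75, which they did not have in sham muscle, and the part of this in the shared genes was not tested.

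Of the genes lower in both legs, 8 were above the floor on all 4 arrays, among them Hbb, Alas2, Akr1b8, E2f2 and Ifit1. Akr1b8, an aldo-keto reductase, had 276 units in control sham, 149.7 in genistein sham, 1464 in control denervated and 294 in genistein denervated muscle, ratios of -0.88 and -2.31. Ifit1, an interferon-induced gene, had 222, 126, 221 and 139.5 units, ratios of -0.83 and -0.67. Ppp1r9b, spinophilin, had 212 and 144 units in the control pools and was below the floor in both genistein pools, at 16.7 and 14.1 units. It was at least 2.68-fold lower in sham and at least 1.82-fold lower in denervated muscle, and Ppp1r9b, Akr1b8 and E2f2 were chosen for their values.

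The 15 highest and 15 lowest ratios among genes above the floor on both sham arrays were mostly of dim genes. The 15 highest had 81.4 to 230.1 units in control sham and 182 to 735 in genistein sham muscle. Besides those above they were L3hypdh, Phf1, Ins1, Klhl4, Myo1f, Plagl2, Vasn, Slc9a8 and Apcdd1, with ratios from 1.12 to 1.48. The 15 lowest, other than Mybph and Hba-a3, had 192 to 433 units in control sham and 80.7 to 206 in genistein sham muscle. Besides those above they were Vax2, Cutal, Ptpn23, Rbm7, Gapdhs, Tmem97, Spns2, Chst14, Plekha4, Rhbdf2 and Fzd1, with ratios from -1.38 to -1.07. Of these, Myo1f, an unconventional myosin of leukocytes (1.15 in sham and at least 1.12 in denervated muscle, where the control pool was below the floor), and Apcdd1, a Wnt inhibitor (1.12 and 0.65), were also 1.5-fold higher in denervated muscle. Fzd1, a Wnt receptor, had 433 and 206 units in sham muscle and 426 and 340 in denervated muscle. Tmem97, a sterol-regulated protein, had 212 and 94.1 units (-1.17), with its second probe set at -0.60.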

How the data were processed

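For each probe set the authors deposited its intensity on a linear scale, made with GCOS version 1.1 per the submitters' processing notes. The scaling target, detection calls and a genome build are not given in the sources used here, and the intensities were used as scaled by the authors. Of 31099 probe sets per array, 57 controls were set aside, 20826 had 1 gene symbol, 436 several and 9780 no listed gene, per the platform annotation. Each of the 14217 genes was represented by 1 probe set, that of the highest log2 signal averaged over all 4 arrays. Signals were raised to the 40th percentile of all probe sets (78.9 units) before log2 was taken. With 1 pooled array per group there is no error term, so counts use fixed sizes of 2-fold and 1.5-fold. The number of arrays limits the precision. Of the gene identifiers, 20758 matched RefSeq's GRCr8 table. Promoters are RefSeq's. The calculations used Python 3.11.15, numpy 2.4.6, pandas 2.3.3 and matplotlib 3.10.9, and the ratio code was tested on simulated data.

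Named were the 15 highest and 15 lowest ratios above the floor on both sham arrays with an established symbol, the 3 largest ratios of each list with at least 5 measured members, and a set of genes named in any case. Most other genes are said to be chosen for their values. Fhl2, Gpd1, Myog, Ccn1 and Zfp36 are list members that were also added after their values were seen. Chrna1 and Chrng were added to check the operation labels, and some further list members are given beside these. The lists (504 entries in 25 lists, 418 measured) and genes were chosen with earlier results of these data known. The alternatives were median, quantile and spike-in scaling, floors at the 20th and 60th percentiles, both sham arrays above the floor, the mean or the brightest sham probe set, and a pseudocount of 16 with no floor.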

Additional observations from a re-analysis of the deposited data

Results flagged for a closer look

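For 8 of the named genes the diet ratio passed 1.5-fold in opposite directions in the legs. Many named genes were picked for large sham ratios. Among all 10147 genes measured in both legs, 258 were 1.5-fold higher in sham muscle, and 13 of them were 1.5-fold lower after denervation. Of the 243 genes 1.5-fold lower in sham muscle, 17 were 1.5-fold higher after denervation. With 1 array per group the difference in these 8 genes was not tested, and no cause was tested. Higher on genistein in sham and lower in denervated muscle were Actn3, the fast-fibre alpha-actinin (log2 ratios 1.25 and -0.94), Myh4, the type IIb myosin (0.81 and -0.73), Ins1 (1.33 and -0.97) and Plagl2 (1.14 and -0.62). Lower in sham and higher in denervated muscle were Myh3, the embryonic myosin (-0.69 and 0.59), Pln, phospholamban (-0.79 and 0.59), Spns2, a sphingosine-1-phosphate transporter (-1.16 and 1.01), and Tie1 (-0.78 and 0.79). Actn3 and Myh4 were far higher in the denervated pools than in the sham pools on both diets. Ins1, Plagl2, Spns2 and Tie1 had at most 292 units on any array, and Spns2 had a second probe set at 0.25 in sham muscle.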

How the results depend on the processing

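Median, quantile and spike-in scaling left the median ratio of all genes between -0.02 and 0.00, and genes past 1.5-fold were split 47.1% to 50.8% upward against 51.7% in the main setting. Of the counts, these scalings changed 1 by more than 1.5-fold, the genes 2-fold higher, from 35 to 23 after spike-in scaling. The counts over both legs shifted by less than that but depended on the scaling. Genes higher in both legs numbered 52 in the main setting and 36, 38 and 63 after median, quantile and spike-in scaling. Genes lower in both legs numbered 16, and 19, 18 and 11 in the same order. Floors mattered most. A floor at the 20th percentile put 362 genes 2-fold higher, 320 lower, 964 1.5-fold higher, 868 lower, and 203 higher and 114 lower in both legs. With the floor at the 60th percentile these counts were 5, 3, 73, 68, 12 and 2. With both sham signals above 250 units, a limit chosen after seeing the data, they were 2, 3, 53, 55, 10 and 2. Requiring both sham arrays above the floor left 19 genes 2-fold lower. A pseudocount of 16 with no floor gave 126 and 120 genes at 2-fold, 439 higher at 1.5-fold and 31 lower in both legs. No named gene past 1.5-fold changed sign under any alternative, and 72 single-gene values moved by more than the probe-set SD while 1474 did not. The medians of the 25 lists moved by less than that, but quantile normalization put the slow-fibre median at 0.00 and turned the respiratory chain (0.04) and fatty acid (0.08) medians positive. The mean over probe sets turned the cholesterol (0.07) and clock (-0.05) medians, signals above 250 units the cytokine median (-0.05), and the fast-fibre, xenobiotic and mitochondrial regulator medians, within 0.02 of 0, also changed sign. Cish fell to 0.73 on the mean of its probe sets and to 0.49 with the floor at the 60th percentile, Fmo2 to 0.42 and 0.15, and Mybpc2 to 1.39 on the mean, while Mybph lay between -2.50 and -2.41 under every alternative. With the floor at the 60th percentile Per1 was at 0.13, Fmo1 at 0.30 and Alas2 at -0.18, short of 1.5-fold. No paired analysis was possible because each group is 1 pooled array and the labels carry no replicate numbers. Signals near the floor and single pools limit every statement here.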

Other observations

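Cholesterol genes, which sterol-sensing factors regulate together, had a median of -0.11 in sham muscle, with 13 of 17 below 0 and Tmem97 alone past 1.5-fold. Srebf2, their main transcription factor, had 327 units in control sham and 244 in genistein sham muscle (-0.43), with 379 and 273 after denervation (-0.47). Interferon response genes had a median of -0.10 over 21, with Ifit2 at 572 and 917 units (0.68, second probe set at 0.135) and Ifit1 at 222 and 126 (-0.83). Schwann cell and nerve markers had a median of -0.07 over 8, with Prx, a myelin protein, at 145 units in control sham and below the floor in genistein sham muscle. Satellite cell markers had a median of 0.04 over 8, with none past 1.5-fold and Itga7, a laminin receptor of muscle, at 1064 and 722 units (-0.56, second probe set at 0.10).

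Of the 9780 probe sets without a listed gene, 4936 were measured in sham muscle, and 18 were 2-fold higher and 24 lower (0.851%). Probe set 1396481_at was 2-fold higher in both legs, at 886 units in control sham, 2409 in genistein sham, 71.1 in control denervated and 188 in genistein denervated muscle (a log2 ratio of 1.44 in sham and at least 1.25 in denervated muscle, where the control signal was below the floor). It was chosen after its values were seen, and its gene is not named in the annotation used here. The gap junction gene Gja1, chosen likewise, had 1294 and 1938 units in sham (0.58) and 604 and 1255 in denervated muscle, and its second probe set, near the floor, gave -0.17 in sham muscle.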
